A study of Homo sapiens with 18 samples.

Results

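The comparison described here is the mean difference between RKO cells targeted with sgERH and RKO cells targeted with sgAAVS1, taken over 3 treatments. RKO is a human colon carcinoma line. The cells carried a doxycycline-inducible Cas9 and came from a single-cell-derived clone, and each guide was expressed constitutively from a lentiviral vector. sgERH cuts the ERH gene, and sgAAVS1 cuts a safe-harbour locus and serves as the negative control. All groups, controls included, received 100 ng/mL doxycycline for 5 days to induce Cas9. They then received MilliQ water (non-treated, NT), 25 ng/mL IFNγ or 10 ng/mL IL-1β for 4 hours. RNA was measured by 3′ mRNA sequencing (QuantSeq), in which each transcript gives reads near its 3′ end. Of 18 libraries in 6 groups, labelled as biological replicates, 15 were used: 8 from sgERH (3 NT, 2 IFNγ, 3 IL-1β) and 7 from sgAAVS1 (2 NT, 3 IFNγ, 2 IL-1β). The study left out the other 3 after a principal component analysis (sgERH IFNγ replicate 2, sgAAVS1 NT replicate 1 and sgAAVS1 IL-1β replicate 3). Each treatment had the same weight in the mean, so a gene whose difference has opposite signs in different treatments can average to nearly 0.

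ERH (enhancer of rudimentary homolog) is a small, highly conserved nuclear protein. It associates with splicing factors, with exon junction and export factors, and with the Microprocessor, which cuts primary microRNA transcripts. In fission yeast its homolog takes part in removing meiotic RNAs and in heterochromatin formation. In human cancer cells ERH is known to be required for splicing of CENPE and for chromosome segregation. The average addresses what ERH targeting does to expression irrespective of the cytokine given.

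The 15 libraries held 4987127 to 5986338 reads assigned to genes (median 5242702). More genes were detected with sgERH: 12474 to 12694 genes had at least 10 reads in sgERH libraries, against 11842 to 12127 in sgAAVS1 libraries, with no overlap (exact permutation test within treatments, two-sided p = 0.001, the smallest it can give). Thinned to equal depth the ranges were 12354 to 12592 in sgERH and 11783 to 11997 in sgAAVS1 (exact permutation p = 0.001). Multimapping reads made up 21.1 to 23.2% of reads in sgERH and 20.4 to 21.3% in sgAAVS1 (exact permutation p = 0.003). With all 18 libraries this difference was no longer past the threshold (exact permutation p = 0.558). sgERH IL-1β replicate 2 had the highest multimapping share of the 15 and stood apart from its replicates. The factors of trimmed-mean (TMM) scaling, which centres the bulk of genes between libraries, were 1.02 to 1.08 in sgERH and 0.916 to 0.967 in sgAAVS1. Scaling to library totals instead moved the median log2 difference over all genes to 0.20, against 0.04 with TMM. All differences below are relative to the TMM centre. Of the markers set for the line, EPCAM, KRT8 and KRT18 were detected in all 15 libraries. KRT19 was at 0 in all of them and CDH1 in every sgERH library, with at most 0.18 CPM (reads of a gene scaled to a fixed library total) in sgAAVS1. PTPRC, PECAM1, CDH5, DCN and LUM were at 0 in all 15, and CD3E and CD14 did not pass 0.37 CPM in any library.

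ERH itself (ENSG00000100632.11, chr14:69380128-69398299, minus strand, GRCh38) was lower in every sgERH library. Its lowest, median and highest levels were 252.9, 297 and 340.0 CPM with sgERH, against 537.3, 606 and 643 CPM with sgAAVS1. The average log2 fold change was −1.02 ± 0.07 (standard error, as for all fold changes below), and the edgeR adjusted p was 1.6e-12. A frameshift need not remove the mRNA, so the remaining level is not a measure of remaining protein. The value lies close to the fold threshold: it was −0.86 with library totals and between −1.06 and −0.99 when single libraries were left out. ERH overlaps SLC39A9 on the opposite strand, and SLC39A9 differed by 0.34.

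A gene was called when its edgeR adjusted p was at most 0.05 and its average log2 fold change at least 1 in size. Of 13370 genes tested, 903 rose (6.75%) and 286 fell (2.14%) with sgERH. At the adjusted p alone, 3409 were higher (25.5%) and 3098 lower (23.2%). All 8 sgERH libraries lay above all 7 sgAAVS1 libraries for 1083 genes (8.1%) and below them for 1278 (9.56%). Among called genes this held for 437 of the 903 that rose and 217 of the 286 that fell. The split between higher and lower calls depends on the scaling: with library totals 1239 genes rose and 160 fell, so that 88.6% of calls were upward, against 75.9% with TMM. By the adjusted p alone it was 5011 higher against 1892 lower, and without overlap 1763 above against 767 below. All 903 of the risen genes were among those 1239. Without sgERH IL-1β replicate 2, 877 genes rose and 294 fell, and of the groups below 21 spindle, 12 kinetochore and 9 helicase genes fell and 9 p53 and 7 snoRNA host genes rose. With all 18 libraries 735 genes rose and 233 fell, and 369 lay above and 250 below without overlap.

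The risen genes were mostly weakly expressed. Their median level was 5.01 CPM in sgERH and 1.93 CPM in sgAAVS1. Fallen genes had medians of 9.29 CPM in sgERH and 22.2 CPM in sgAAVS1, and genes not called 21.8 CPM in sgERH and 21.0 CPM in sgAAVS1. Among 791 genes with a mean level under 1 on the log2 CPM scale, 24.7% rose and 3.41% fell. Among 1430 genes at 7 or more on that scale, 0.909% rose and 1.61% fell, and their median log2 fold change was −0.25. The filter on low counts works by group, so a gene under 1 on this scale can be kept through a group in which it is high. The part of the filter in the shares of these weak genes was not tested. The plot of change against level shows the risen genes crowded at the low end and the most highly expressed genes lying mostly below 0.

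**Figure D1:**
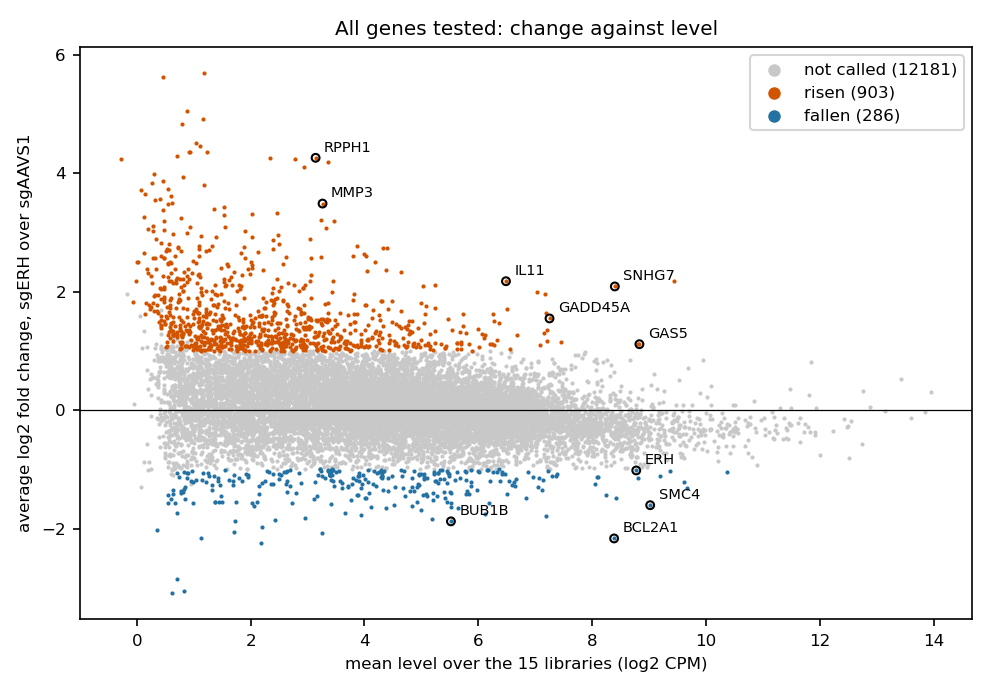
Average log2 fold change (sgERH over sgAAVS1, y axis) against the mean level over the 15 libraries (log2 CPM, x axis) for the 13370 genes tested; orange points are the 903 risen genes, blue points the 286 fallen genes and grey points the others. Risen genes lie mostly at low levels, whereas SMC4, BCL2A1 and ERH fell at high levels.

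Nearly all called genes differed in the same direction in each of the 3 treatments. Of the 903 risen genes 884 had a positive difference in each treatment, and of the 286 fallen genes 283 had a negative one. These counts rest on the libraries that made the calls, so calls were also made on 2 treatments and read in the third, which shares no library with them but shares the estimate of spread. Of 865 genes risen on average over IFNγ and IL-1β, 840 (97.1%) were higher in NT and 495 (57.2%) were higher there at the adjusted p alone, against 12.4% of all genes tested. Of 309 genes fallen in those treatments, 290 were lower in NT and 197 (63.8%) passed the adjusted p, against 13.7% of all genes. In IFNγ, 489 of 859 genes risen in the other treatments passed (56.9%, against 12.4% of all genes), as did 220 of 301 fallen genes (73.1%, against 12.6%). In IL-1β, 493 of 890 risen genes passed (55.4%, against 13.3%) and 197 of 278 fallen genes (70.9%, against 13.1%). The median differences were smaller in the third treatment, for example 1.25 in NT where the other treatments gave 1.43 for the risen genes, and −1.01 where they gave −1.22 for the fallen genes.

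Genes of the mitotic spindle had the lowest median of the lists with at least 6 tested genes. The spindle moves chromosomes by microtubule motors of the kinesin family, and cytokinesis then divides the cell. Of 42 spindle, kinesin and cytokinesis genes tested, 21 fell, against 2.14% of all genes tested, and none rose. At the adjusted p alone 36 were lower, against 23.2%. The median log2 fold change was −1.002, against 0.04 over all genes. The list took 0.128 to 0.143% of reads in sgERH libraries, against 0.223 to 0.234% in sgAAVS1 libraries. With library totals 10 of the 42 fell and 33 were lower. In bulk RNA, fewer cells in a phase of the cycle and less RNA per cell cannot be told apart.

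DLGAP5, which bundles spindle microtubules near chromosomes, had 2.03, 3.73 and 5.81 CPM (lowest, median and highest) with sgERH, against 13.5, 14.9 and 19.5 CPM with sgAAVS1. It fell by 2.07 ± 0.18 on the log2 scale (edgeR adjusted p = 2.9e-10). TACC3, a spindle protein that acts with clathrin, had 63.3, 82.3 and 87.7 CPM with sgERH, against 169, 215 and 228 CPM with sgAAVS1, a change of −1.35 ± 0.07. GTSE1, a microtubule-associated protein of G2 and S phase, changed by −1.30 ± 0.15. In all 3 genes the guides did not overlap, which the choice by size required of DLGAP5. KIF18A, a kinesin that limits chromosome oscillation, was called at −1.51 ± 0.45 but at very low levels, with medians of 0.53 CPM in sgERH and 1.82 CPM in sgAAVS1 and overlapping libraries. KIF2A, a microtubule-depolymerising kinesin outside the list, was among the 15 lowest genes, with 6.44, 8.73 and 9.63 CPM with sgERH, against 24.6, 25.6 and 33.8 CPM with sgAAVS1 (−1.64 ± 0.12).

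Kinetochore and checkpoint genes moved the same way. The kinetochore is the protein assembly through which a chromosome is held by the spindle, and the checkpoint delays anaphase until all are attached. Of 47 tested, 14 fell, against 2.14% of all genes tested, and none rose. At the adjusted p alone 39 were lower, against 23.2%, with a median of −0.77. BUB1B, the checkpoint kinase-like protein BUBR1, had 14.96, 20.4 and 24.2 CPM with sgERH, against 61.3, 75.8 and 89.0 CPM with sgAAVS1 (−1.88 ± 0.10, edgeR adjusted p = 1.8e-14). CENPE, a kinetochore kinesin, had 1.04, 2.47 and 3.06 CPM with sgERH, against 5.80, 9.14 and 10.5 CPM with sgAAVS1 (−1.85 ± 0.22). HJURP, the chaperone of the centromeric histone CENPA, changed by −1.40 ± 0.09, and BUB1, a checkpoint kinase, by −1.39 ± 0.08. None of these 4 genes overlapped between guides, which the choice by size required of BUB1B. BUB1B overlaps PAK6 and the readthrough gene BUB1B-PAK6 on its own strand, which went the other way, at 1.07 and 1.09. With library totals 8 of the 47 fell.

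Condensins compact mitotic chromosomes, and cohesins hold sister chromatids together. Of 23 genes of this group 7 fell, against 2.14% of all genes tested, none rose and the median was −0.64. SMC4, a core condensin subunit, had 236.5, 251.9 and 328 CPM with sgERH, against 725, 778 and 909 CPM with sgAAVS1 (−1.61 ± 0.07, edgeR adjusted p = 5.1e-16). NCAPG, a condensin I subunit, had 27.7, 31.5 and 41.5 CPM with sgERH, against 93.4, 112 and 124 CPM with sgAAVS1 (−1.75 ± 0.10). TOP2A, the topoisomerase that untangles chromosomes, changed by −1.45 ± 0.12, and NCAPG2, a condensin II subunit, by −1.30 ± 0.12. MKI67, the proliferation marker Ki-67, had 50.7, 57.9 and 68.3 CPM with sgERH, against 129.5, 137 and 152 CPM with sgAAVS1 (−1.27 ± 0.07). NCAPD2, another condensin I subunit, lay just outside the fold threshold at −0.999.

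Many mitosis genes carry a short element in their promoters, the cell cycle genes homology region (CHR), to which the MuvB complexes DREAM and MYB-MuvB bind. The letters TTTGAA (on either strand, TTCAAA in reverse) were searched in RefSeq promoter windows of 300 bases (GRCh38.p14), from 250 before to 50 after the annotated start. Of 13370 genes tested 9138 matched a window. The letters stood in 27 of 37 windows (73.0%) of the fallen members of these 3 lists, in 26 of 58 (44.8%) of the members that did not fall, and in 8.72% of the windows of 9043 tested genes outside the lists. The share over all 27305 RefSeq windows was 15.4%. The fallen genes outside all lists had the letters in 18 of 126 windows (14.3%). The letters of the CCAAT box, either strand, were found in 22 of those 37 windows, in 41 of those 58, and in 36.9% of the tested genes outside the lists. These are matches of letters, not measured binding. Upstream of the start, the fallen list members CENPE, BUB1 and TACC3 held no match, nor did KIF2A. The stretches around the match for 5 fallen genes that held one there are shown as examples. Each is written 5′ to 3′ on the strand of its gene, with the matched letters in capitals.
BUB1B (chr15:40160996-40161068, plus strand): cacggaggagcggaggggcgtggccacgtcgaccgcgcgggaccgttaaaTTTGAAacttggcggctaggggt
NCAPG (chr4:17810894-17810978, plus strand): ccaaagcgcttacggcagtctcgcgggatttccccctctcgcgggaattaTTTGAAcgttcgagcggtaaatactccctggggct
SMC4 (chr3:160399525-160399630, plus strand): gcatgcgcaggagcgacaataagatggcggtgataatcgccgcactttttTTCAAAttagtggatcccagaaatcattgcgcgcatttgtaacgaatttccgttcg
DLGAP5 (chr14:55191639-55191744, minus strand): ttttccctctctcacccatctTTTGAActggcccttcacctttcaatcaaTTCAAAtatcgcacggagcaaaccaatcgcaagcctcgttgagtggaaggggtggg
MKI67 (chr10:128126424-128126502, minus strand): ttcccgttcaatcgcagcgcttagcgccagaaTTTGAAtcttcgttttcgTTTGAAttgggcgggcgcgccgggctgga
The match began 23 bases before the start in BUB1B, 35 in NCAPG and 75 in SMC4. DLGAP5 and MKI67 each held a pair of matches in the stretch shown.

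Most replication genes were lower. The MCM proteins form the helicase that unwinds DNA, with CDC45 and the GINS complex as its activators. Of 31 helicase and origin genes, 10 fell, against 2.14% of all genes tested, and none rose. At the adjusted p alone 25 were lower, against 23.2%, with a median of −0.75. All 6 subunits MCM2 to MCM7 were called. MCM3 had 9.73, 17.0 and 20.01 CPM with sgERH, against 46.3, 55.6 and 80.4 CPM with sgAAVS1 (−1.83 ± 0.13, edgeR adjusted p = 1.3e-10). The other 5 lay between −1.25 for MCM7 and −1.05 for MCM2. WDHD1, a replisome adaptor, changed by −1.61 ± 0.12, GINS2 by −1.49 ± 0.09 and CDC45 by −1.30 ± 0.13. No library of these 4 genes overlapped between guides, which the choice by size required of MCM3.

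Genes for copying DNA and supplying nucleotides, with a histone chaperone among them, were called less often than the helicase and origin genes. Of 36 tested 7 fell, against 2.14% of all genes tested, and none rose. At the adjusted p alone 29 were lower, against 23.2%, with a median of −0.66. ASF1B, a histone chaperone, had 29.9, 35.5 and 47.8 CPM with sgERH, against 100.4, 109 and 123 CPM with sgAAVS1 (−1.58 ± 0.10). TK1, which makes thymidine monophosphate, changed by −1.38 ± 0.09 and DUT, which removes dUTP, by −1.29 ± 0.06. FEN1, the flap endonuclease of Okazaki fragments, changed by −1.28 ± 0.11. FEN1 overlaps FADS2, a fatty acid desaturase that was among the 15 lowest genes (−1.82 ± 0.18), on the same strand, so reads of this pair may be shared. In contrast to the helicase genes, the summed share of this list overlapped between guides, at 0.400 to 0.548% of reads in sgERH and 0.471 to 0.523% in sgAAVS1.

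Of 46 DNA repair genes 10 fell, against 2.14% of all genes tested, and none rose. At the adjusted p alone 28 were lower, against 23.2%, with a median of −0.58. EXO1, an exonuclease of mismatch repair and resection, had 4.33, 7.41 and 9.86 CPM with sgERH, against 20.4, 24.0 and 32.6 CPM with sgAAVS1 (−1.78 ± 0.16). BRIP1, a helicase partner of BRCA1, changed by −1.48 ± 0.13. RMI1, a partner of the BLM helicase, changed by −1.44 ± 0.20, and FANCB, a Fanconi anaemia core protein, by −1.28 ± 0.21, with overlapping libraries for FANCB only. Outside the list, PRKDC, the catalytic subunit of the DNA-dependent protein kinase, lay just inside the threshold at −1.001. With library totals 6 of the 46 fell.

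Cell cycle regulators were mixed. Of 46 cyclins, cyclin-dependent kinases, inhibitors and E2F-related genes, 3 rose and 6 fell, with a median of −0.35. Over all genes tested 6.75% rose, near the risen share here, and 2.14% fell. MYBL2, which activates mitosis genes through MuvB, had 26.0, 29.8 and 47.1 CPM with sgERH, against 62.4, 85.2 and 91.1 CPM with sgAAVS1 (−1.36 ± 0.09). UBE2C, which loads ubiquitin for the anaphase-promoting complex, changed by −1.11 ± 0.07. The other fallen members were CDK1, CCNA2, CCNB1 and CCNB2, the kinase of mitosis and its cyclins, between −1.08 and −1.03. CCNG1, an atypical cyclin induced by p53, rose to 76.2, 90.1 and 101 CPM with sgERH, against 30.9, 32.5 and 40.1 CPM with sgAAVS1 (1.37 ± 0.09). CCNG2, a cyclin of resting cells, was called at 2.01 ± 0.39, at medians of 2.98 CPM with sgERH and 0.75 CPM with sgAAVS1. The third risen gene, the inhibitor CDKN1C (1.27), had 96.3% multimapping reads. With library totals MYBL2 was the only 1 of the 6 still called.

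Genes bound by p53, the transcription factor stabilised by DNA damage, were higher as a group. Of 36 tested, 9 rose, against 6.75% of all genes tested, and none fell. At the adjusted p alone 24 were higher, against 25.5%, with a median of 0.66. The list took 0.365 to 0.424% of reads in sgERH, against 0.214 to 0.231% in sgAAVS1. GADD45A, a growth arrest gene, had 176, 209 and 279 CPM with sgERH, against 59.6, 68.1 and 91.0 CPM with sgAAVS1 (1.55 ± 0.07, edgeR adjusted p = 5.8e-16). The paper describes the GADD45A mRNA as steadily degraded by nonsense-mediated decay, and the part of this in its change was not tested. SESN2, a sestrin that restrains mTORC1, had 163, 194 and 250.3 CPM with sgERH, against 66.2, 76.8 and 99.5 CPM with sgAAVS1 (1.30 ± 0.07). GDF15, a stress cytokine, changed by 1.77 ± 0.16 and TP53INP1, an autophagy and apoptosis factor, by 1.54 ± 0.20. PLK2 was called at 3.26 ± 0.90 on very few reads, with a median of 0.88 CPM in sgERH and 0 in sgAAVS1. CDKN1A, the cell cycle inhibitor p21 and a canonical p53 target, was not called, with 351, 358 and 445 CPM in sgERH, against 318, 331 and 358 CPM in sgAAVS1 (0.13 ± 0.06, edgeR adjusted p = 0.070). MDM2, the ubiquitin ligase of p53, was higher by 0.93 without overlap, short of the fold threshold. With library totals 15 of the 36 rose.

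ATF4 drives the integrated stress response to amino acid shortage and to endoplasmic reticulum stress. Of 25 genes of this response 8 rose, against 6.75% of all genes tested, none fell and the median was 0.47. CHAC1, which degrades glutathione, had 5.22, 8.62 and 9.99 CPM with sgERH, against 1.01, 2.46 and 3.73 CPM with sgAAVS1 (1.86 ± 0.21). DDIT3, the transcription factor CHOP, had 46.2, 51.5 and 63.2 CPM with sgERH, against 19.05, 20.8 and 22.0 CPM with sgAAVS1 (1.33 ± 0.09). ATF3 changed by 1.598 ± 0.24, and its libraries overlapped. ATF4 itself rose by 1.11, with 21.3% multimapping reads. GDF15 and SESN2 belong to both this list and the p53 list. TGATGNAA (TTNCATCA in reverse), the letters of the element that ATF4 and its partners bind, stood in 2 of 7 windows of the risen members, against 1.66% of tested genes. One was CHAC1, shown with the match in capitals.
CHAC1 (chr15:40953221-40953319, plus strand): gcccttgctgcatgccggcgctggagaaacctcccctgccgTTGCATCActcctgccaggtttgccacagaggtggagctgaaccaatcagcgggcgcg

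Immediate-early genes and their AP-1 factors respond to signalling within an hour. Of 35 tested 8 rose, against 6.75% of all genes tested, none fell and the median was 0.28. NR4A2, an orphan nuclear receptor, had 7.62, 15.9 and 19.4 CPM with sgERH, against 0.41, 1.25 and 3.43 CPM with sgAAVS1 (3.21 ± 0.25, edgeR adjusted p = 4.7e-11). JUND, an AP-1 subunit, had 182, 204 and 271 CPM with sgERH, against 60.2, 63.8 and 77.9 CPM with sgAAVS1 (1.64 ± 0.07). SPRY2, a feedback inhibitor of receptor kinases, changed by 1.51 ± 0.12. ARC, called at 2.15 ± 0.47, had medians of 2.65 CPM in sgERH and 0.61 CPM in sgAAVS1. The summed share of the list overlapped between guides, at 0.452 to 0.592% of reads in sgERH and 0.444 to 0.497% in sgAAVS1.

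Targets of NF-κB, the transcription factor that IL-1β activates, included both a large rise and the lowest gene of all named. Of 41 tested 13 rose and 1 fell, against 6.75% and 2.14% of all genes tested, and the median was 0.57. By treatment the median was 0.57 in NT, 0.83 in IFNγ and 0.22 in IL-1β. The metalloproteinases MMP3 and MMP1, which cleave extracellular matrix, had the largest changes of the list. In sgAAVS1 cells neither these nor the member IL11 were higher with IL-1β than in NT. With IL-1β MMP3 had 0.606 and 1.44 CPM there, against 4.20 and 1.45 CPM in NT. For MMP1 the values were 4.84 and 4.51 CPM, against 6.93 and 5.62 CPM. For IL11 they were 27.5 and 29.3 CPM, against 34.9 and 43.3 CPM. MMP3 had 11.1, 16.3 and 18.1 CPM with sgERH, against 0.416, 1.43 and 4.20 CPM with sgAAVS1 (3.49 ± 0.24, edgeR adjusted p = 1.9e-12). MMP1 had 30.9, 32.9 and 41.0 CPM with sgERH, against 3.48, 4.84 and 6.93 CPM with sgAAVS1 (2.73 ± 0.13). IL11, a cytokine of the IL-6 family, had 116, 139 and 162 CPM with sgERH, against 24.9, 27.5 and 43.3 CPM with sgAAVS1 (2.18 ± 0.08, edgeR adjusted p = 5.0e-18). None of these 3 overlapped between guides, which their choice by size required. CXCL2, a neutrophil chemokine, was called at 2.22 ± 0.59, but its levels ranged from 0.348 to 15.3 CPM in sgERH and from 0 to 4.31 CPM in sgAAVS1, highest in the IL-1β libraries of both. The fallen member was BCL2A1, an anti-apoptotic BCL2 relative, at 99.6, 122 and 178 CPM with sgERH, against 450, 559 and 699 CPM with sgAAVS1 (−2.17 ± 0.08, edgeR adjusted p = 5.0e-18). It was the lowest gene of those chosen by size, and its highest sgERH library lay well below its lowest sgAAVS1 library.

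AP-1 binds TGANTCA, which is its own reverse complement in these letters. It was found in 3 of 15 windows of the risen immediate-early and NF-κB genes, against 4.29% of tested genes and 7.76% of all windows. IL11 and MMP10, a metalloproteinase that changed by 2.06, are shown because their match lies within 100 bases of the start, with the letters in capitals. The RefSeq promoter set held no window for MMP1 or MMP3, so these genes could not be searched.
IL11 (chr19:55370503-55370609, minus strand): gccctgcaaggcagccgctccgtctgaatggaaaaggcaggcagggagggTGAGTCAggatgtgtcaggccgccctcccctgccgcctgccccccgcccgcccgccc
MMP10 (chr11:102780639-102780745, minus strand): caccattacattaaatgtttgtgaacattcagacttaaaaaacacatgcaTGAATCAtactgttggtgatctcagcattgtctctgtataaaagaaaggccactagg

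**Figure D2:**
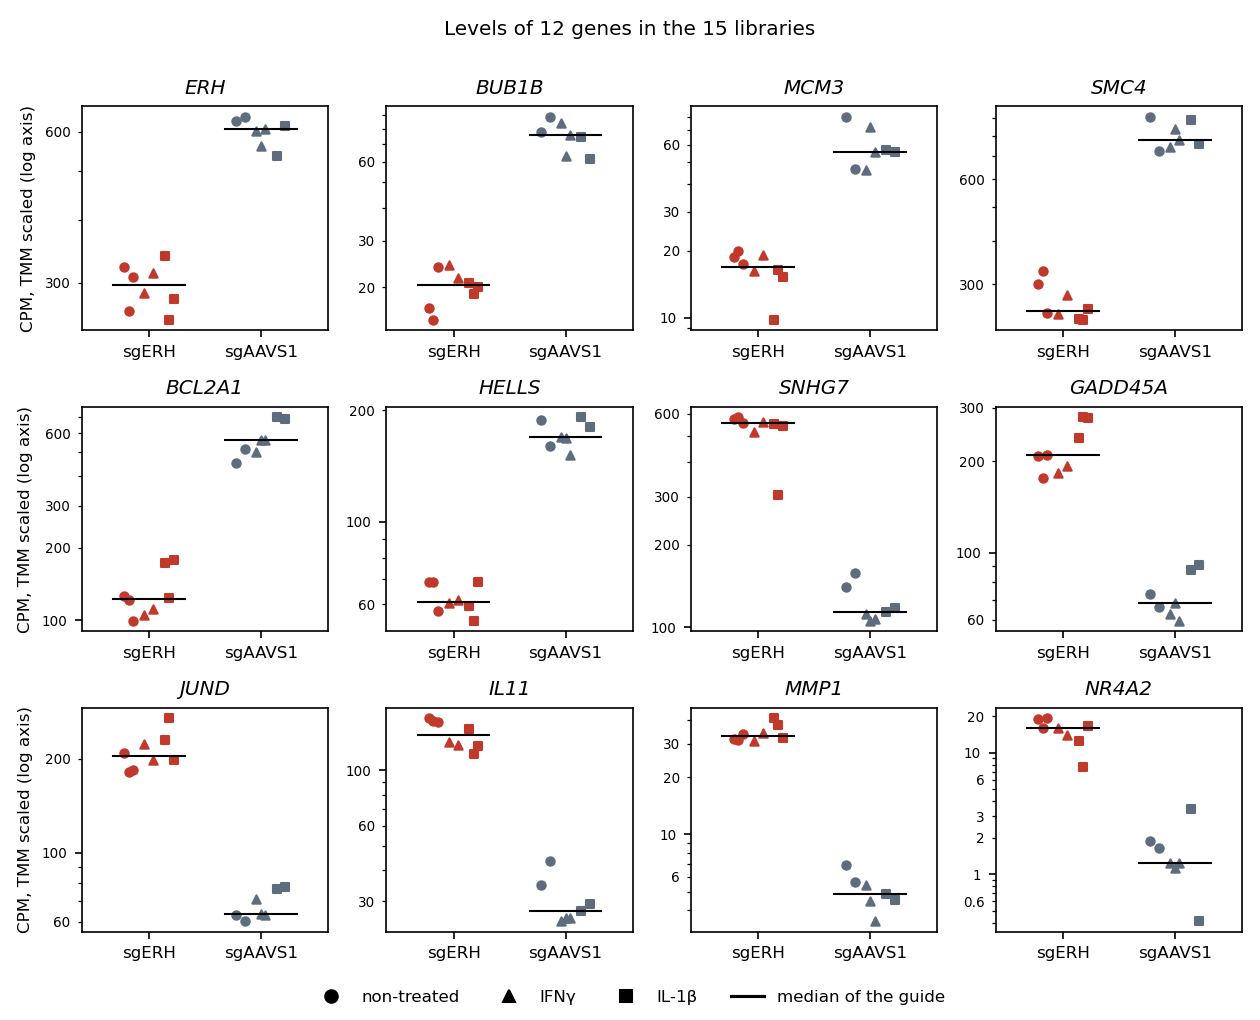
Levels (CPM after TMM scaling, log axis) of 12 genes in each of the 15 libraries, sgERH left and sgAAVS1 right in each panel; circles are non-treated, triangles IFNγ and squares IL-1β libraries, and the line is the median of the guide. In all 12 genes the guides do not overlap, which the choice by size required of BUB1B, MCM3, BCL2A1, IL11, MMP1 and NR4A2. Of all genes tested 8.1% lay above and 9.56% below without overlap. SNHG7 in sgERH IL-1β replicate 2, at 303.6 CPM, lies below the other 7 sgERH libraries.

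Outside these groups, the genes with the largest changes had varied roles. MYCT1, named as a MYC target, had 8.77, 12.8 and 15.1 CPM with sgERH, against 0.202, 0.42 and 2.00 CPM with sgAAVS1 (4.10 ± 0.27). GABARAPL1, an autophagosome protein of the ATG8 family, had 32.5, 38.9 and 42.9 CPM with sgERH, against 6.03, 6.71 and 11.8 CPM with sgAAVS1 (2.33 ± 0.14). CHFR, a ubiquitin ligase that delays entry into mitosis, changed by 2.19 ± 0.21. UHRF1BP1L changed by 2.12 ± 0.20. HMOX1, haem oxygenase, was chosen after its values were seen and had 177, 191 and 260.2 CPM with sgERH, against 42.6, 51.0 and 58.6 CPM with sgAAVS1 (1.99).

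Among the lowest genes, CMAS, which activates sialic acid, had 10.3, 15.4 and 21.4 CPM with sgERH, against 45.1, 49.9 and 52.3 CPM with sgAAVS1 (−1.69 ± 0.12). SYNE2, a nesprin that links the nucleus to the cytoskeleton, changed by −1.65 ± 0.09, and VRK1, a nuclear kinase, by −1.64 ± 0.09. HSPA4L, a nucleotide exchange factor for HSP70, changed by −1.62 ± 0.11. It was the only fallen gene of 27 heat shock genes, of which DNAJB2, a co-chaperone, was the only risen one (1.76 ± 0.11). CD99L2, a membrane glycoprotein, changed by −1.75 ± 0.23. None of the genes in this paragraph overlapped between guides, which the choice of the 15 lowest genes required of all but DNAJB2. Of all genes tested 9.56% lay below and 8.1% above without overlap.

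Glycolysis genes took a lower share of reads with sgERH. Of 28 glycolysis genes 3 fell, against 2.14% of all genes tested, and none rose. At the adjusted p alone 21 were lower, against 23.2%, with a median of −0.48. Their share of reads was 0.926 to 1.21% in sgERH, against 1.47 to 1.58% in sgAAVS1. LDHA fell by 1.32, with 29.3% multimapping reads. PFKL, the liver phosphofructokinase, changed by −1.12 ± 0.12, and PDK1 by −1.10 ± 0.28 with overlapping libraries. PDK1 was not called without sgAAVS1 NT replicate 2 (−0.76), without sgERH IL-1β replicate 1 (−0.98) or with library totals (−0.94). With library totals 1 of the 28 fell, 2 rose and 16 were lower. Of 33 sterol and fatty acid genes 2 rose, INSIG1 (1.12 ± 0.09) and MVK (1.10 ± 0.10), and FADS2 fell. These counts lie near the shares of all genes tested, 6.75% risen and 2.14% fallen. Of 33 apoptosis regulators, BBC3 (PUMA) rose, at 1.11 ± 0.08, and BCL2A1 and BIRC5 (survivin, −1.21 ± 0.07) fell, with a median of −0.02.

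Epithelial, matrix and adhesion genes gave scattered calls. EPCAM, an epithelial adhesion molecule, rose to 13.0, 15.4 and 20.4 CPM with sgERH, against 4.83, 7.06 and 7.995 CPM with sgAAVS1 (1.25 ± 0.15), whereas KRT18 was lower by 0.75, under the fold threshold and with 43.6% multimapping reads. Of 14 matrix and mesenchyme genes 2 rose and 2 fell. SNAI1, a repressor of epithelial genes, rose (1.14 ± 0.38), and the integrins ITGB1 (−1.49, with 94.3% multimapping reads) and ITGA2 (−1.39 ± 0.22) fell. SNAI1 was not called without sgERH NT replicate 1 (0.97), without sgAAVS1 NT replicate 3 (0.84) or with all 18 libraries. ACTA2, smooth muscle actin and the only tested gene of the endothelial and fibroblast list, fell by 1.41 ± 0.23, at medians of 2.55 CPM in sgERH and 5.60 CPM in sgAAVS1. Of the list's 12 members 6 had no read in any of the 15 libraries, among them PECAM1, CDH5, DCN and LUM.

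ERH's own partners were not called. Of 37 exon junction, export and other partner genes, none rose and none fell, while 10 were higher and 13 were lower when judged by the adjusted p alone. Of all genes tested 25.5% were higher and 23.2% lower by the adjusted p, and 8.1% lay above and 9.56% below without overlap. Of the 37, 5 lay above and 9 below without overlap between guides. Among them were UPF3B, a factor of nonsense-mediated decay, at 0.99, THOC2, a subunit of the THO export complex, at −0.995, MAGOH, an exon junction core subunit, at −0.65, ALYREF, an export adaptor, at −0.70, and SRSF1, an SR protein, at −0.55. POLDIP3, another export factor, was at −0.11 ± 0.08 (edgeR adjusted p = 0.25). None of 50 core spliceosome genes was called and 32 were lower at the adjusted p alone, with a median of −0.31. None of 40 SR and hnRNP genes was called and 29 were lower, with a median of −0.40. The list's share of reads was 0.665 to 0.761% in sgERH, against 0.901 to 0.960% in sgAAVS1. These small shifts have to be read against the centre: the medians were −0.15 for the spliceosome and −0.25 for SR and hnRNP genes with library totals, and that of the partner genes changed sign, to 0.01.

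Cytosolic ribosomal proteins and housekeeping genes showed shifts of similar size. Of 79 ribosomal protein genes none was called and 64 were lower at the adjusted p alone, with a median of −0.30, or −0.14 with 34 lower under library totals. They took 11.8 to 12.8% of all reads in sgERH, against 13.1 to 13.9% in sgAAVS1. Of 19 housekeeping genes none was called and 12 were lower, with a median of −0.34. GAPDH had 2522, 3042 and 4402 CPM with sgERH, against 4846, 5181 and 5566 CPM with sgAAVS1 (−0.76).

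Of 28 genes of H3K9 methylation, HP1 and associated chromatin factors, 3 fell and none rose, against 2.14% and 6.75% of all genes tested. HELLS, a chromatin remodeller, had 54.1, 60.9 and 69.0 CPM with sgERH, against 152, 170 and 191 CPM with sgAAVS1 (−1.48 ± 0.07). CDCA7, its activator, changed by −1.37 ± 0.12, and UHRF1, which recruits DNMT1, by −1.05 with 70.1% multimapping reads. The methyltransferases themselves were not called. In fission yeast ERH's homolog silences meiotic genes, so germline genes were examined. Of 46 listed in the files only 4 passed the filter on low counts, 24 had no read in any of the 15 libraries, and 1 rose. It was ZCWPW1, a meiotic histone reader, with 6.67, 9.99 and 14.1 CPM with sgERH, against 1.82, 3.28 and 4.20 CPM with sgAAVS1 (1.71 ± 0.20). The share of reads of the whole list was 0.00488 to 0.00764% in sgERH and 0.00454 to 0.00594% in sgAAVS1.

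Most of the listed host genes of small nucleolar RNAs (snoRNAs) were higher. These genes carry snoRNAs in their introns, and many of their spliced transcripts are known to be degraded by nonsense-mediated decay. Of 27 tested 6 rose, against 6.75% of all genes tested, none fell and the median was 0.43. At the adjusted p alone 15 were higher and 3 lower, against 25.5% and 23.2% of all genes, with SNHG3 the lowest at −0.87. Hosts of the tested snoRNAs taken by position, given below, mostly had negative differences. The list took 0.757 to 0.794% of reads in sgERH, against 0.470 to 0.503% in sgAAVS1. SNHG7 had 303.6, 555 and 584 CPM with sgERH, against 106, 114 and 157 CPM with sgAAVS1 (2.09 ± 0.10, edgeR adjusted p = 1.0e-11). EPB41L4A-AS1 had 187, 209 and 281 CPM with sgERH, against 52.6, 55.1 and 60.3 CPM with sgAAVS1 (1.96 ± 0.07), and SNHG11 changed by 1.72 ± 0.10. GAS5, the classic decay-sensitive host gene, had 538, 618 and 648 CPM with sgERH, against 246, 280 and 295 CPM with sgAAVS1 (1.11). SNHG22 (3.19 ± 0.69) was called on medians of 1.30 CPM in sgERH and 0.21 CPM in sgAAVS1, and was not called with all 18 libraries. SNHG32 (1.14) had only multimapping reads. With library totals 9 of the 27 rose.

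Risen snoRNAs with a tested host lay inside genes that were not called, as did nearly all other such snoRNAs. Of 55 tested snoRNAs with at most 20% multimapping reads 10 rose and 3 fell, with a median of −0.06. SNORD46 had 6.49, 10.6 and 19.4 CPM with sgERH, against 0, 0.63 and 1.04 CPM with sgAAVS1 (4.25 ± 0.35, edgeR adjusted p = 4.9e-10). Each of the 10 risen snoRNAs of any multimapping share that lie inside another tested gene on the same strand had a host that was not called, and 8 of the 10 hosts had a negative difference. The medians were 2.57 for these snoRNAs and −0.31 for their hosts. Uncalled hosts were usual: of 46 hosts of uncalled snoRNAs 1 fell and none rose, and none of 3 hosts of fallen snoRNAs was called. Of all 13370 genes tested 12181 were not called. Negative hosts were also frequent among the other snoRNAs: they made up 31 of 46 hosts of uncalled snoRNAs, with medians of −0.19 for the snoRNAs and −0.17 for the hosts, and all 3 hosts of fallen snoRNAs. SCARNA10, which guides modification of spliceosomal RNA, was at 4.36 inside NCAPD2, at −0.999. SCARNA10 was chosen after its values were seen. QuantSeq primes on poly(A), which mature snoRNAs lack, and which molecules gave these reads was not tested.

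Among the other RNAs that normally carry no poly(A) tail, RPPH1 had the largest difference of the genes chosen by size. RPPH1, the RNA component of RNase P, had 6.09, 14.3 and 25.7 CPM with sgERH, against 0.205, 0.615 and 1.81 CPM with sgAAVS1 (4.26 ± 0.29, edgeR adjusted p = 7.2e-12, chr14:20343075-20343407, minus strand). Of 58 small nuclear RNA (snRNA) genes, which include those of the spliceosome, 30 rose and none fell. Most belong to families of near-identical copies: of the 29 with at most 20% multimapping reads 6 rose, with a median of 0.06. The 4 ribosomal RNA genes tested all rose, and all had nearly only multimapping reads. Multimapping reads were also more frequent in sgERH libraries, as given above, and the part of this in the snRNA and rRNA counts was not tested.

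A larger share of long non-coding RNAs (lncRNAs) than of protein-coding genes was called as risen. Of 298 lncRNA genes with at most 20% multimapping reads 72 rose (24.2%) and 4 fell, with a median of 0.47. Of 9921 protein-coding genes with the same limit 516 rose (5.20%) and 219 fell, with a median of 0.05. MIR100HG, host of miR-100, let-7a-2 and miR-125b-1, had 11.5, 16.3 and 19.5 CPM with sgERH, against 1.68, 3.48 and 5.25 CPM with sgAAVS1 (2.18 ± 0.19), and FAM225A changed by 2.29 ± 0.21. The clone-named transcripts AC005332.5 and AC073140.1 were among the 15 highest genes, at 3.08 ± 0.19 and 2.63 ± 0.15. LINC01358 went the other way, with 56.0, 68.9 and 75.5 CPM with sgERH, against 200.0, 248.3 and 262 CPM with sgAAVS1 (−1.79 ± 0.07), as did LINC01629 (−1.65 ± 0.13). Weakly expressed genes of all types also rose in a larger share, as given above. The part of expression level and of the filter on low counts in the lncRNA share was not tested.

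Among protein-coding genes, risen genes had fewer exons and fallen genes more, given here as a description without a test. The 558 risen genes had a median of 7 exons (quartiles 4 and 12), the 234 fallen genes 11 (6 and 19) and the 9937 genes not called 9 (5 and 15). The summed intron length had medians of 14158 bases in risen, 37303 bases in fallen and 24074 bases in uncalled genes. Of 182 single-exon genes 18 rose (9.89%) and 1 fell. Of 1651 genes with 20 or more exons 67 rose (4.06%) and 52 fell (3.15%). The median level on the log2 CPM scale was 3.84 for single-exon genes, 4.71 for genes of 5 to 9 exons and 4.47 for those of 20 or more, and its part in these shares was not tested. Exon numbers are those of GENCODE 44, and no intron was measured here.

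**Figure D3:**
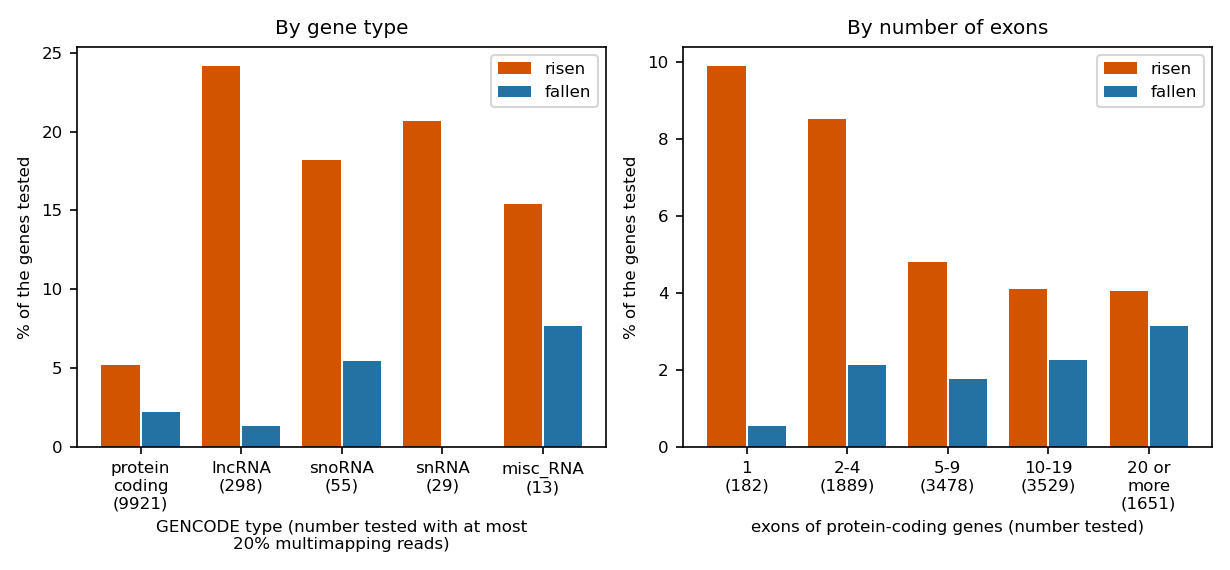
Share of genes that rose (orange) or fell (blue), in % of the genes tested, by gene type for genes with at most 20% multimapping reads (left) and by exon number of protein-coding genes (right). Of lncRNAs 24.2% rose, and the share of risen genes was 9.89% for single-exon genes and 4.06% for those with 20 or more exons.

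For a few genes the average is no description of any treatment. The guide difference varied among NT, IFNγ and IL-1β for 35 of 13370 genes (0.262%, edgeR quasi-likelihood test of both contrasts, adjusted p at most 0.05). In 30 of the 35 the difference was lowest in IFNγ, and in 28 it was also negative there. Of these 28, 21 had positive differences in both NT and IL-1β. Only 4 of the 35 were called on average, SECTM1, BIRC3, ZC3H12A and the snRNA gene RNU1-2.

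IRF1, the transcription factor induced by IFNγ, had 118 ± 0.047 CPM in sgERH cells with IFNγ (SD, n = 2), against 825 ± 64.3 CPM in sgAAVS1 cells with IFNγ (SD, n = 3). Without treatment it had 28.0 CPM in sgERH and 22.8 CPM in sgAAVS1. With IL-1β it had 51.9 CPM in sgERH and 30.4 CPM in sgAAVS1. The differences were 0.30 in NT, −2.81 in IFNγ and 0.77 in IL-1β, with an average of −0.58 ± 0.07 and an adjusted p of 2.7e-14 for the variation. ICAM1, an adhesion molecule, differed by 1.10, −1.69 and 0.22 in the same order. APOL2, an apolipoprotein L gene, differed by 1.82, −0.72 and 1.42. Of 53 interferon response genes tested 3 rose and 1 fell on average, near the shares of all genes tested (6.75% and 2.14%). Their median was 0.07, whereas the medians by treatment were 0.35 in NT, −0.65 in IFNγ and 0.32 in IL-1β. Judged by the adjusted p alone, 18 of the 53 were higher and 3 lower in NT, against 12.4% and 13.7% of all genes tested. In IFNγ 2 were higher and 23 lower, against 12.4% and 12.6%.

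The 4 members called on average were not among the 35 varying genes. IFI6, an interferon-inducible mitochondrial protein, had 26.5, 33.3 and 40.6 CPM with sgERH, against 5.05, 5.46 and 8.81 CPM with sgAAVS1 (2.37 ± 0.13), with the guides apart in every treatment. SAMD9, an antiviral factor, changed by 1.87 ± 0.23. CD274, the checkpoint ligand PD-L1, had 268, 285 and 300.2 CPM with sgERH, against 599, 620 and 665 CPM with sgAAVS1 (−1.14 ± 0.06). SOCS1 (2.69 ± 0.56) had medians of 2.67 CPM in sgERH and 1.23 CPM in sgAAVS1 and its libraries overlapped. Both sgAAVS1 NT libraries of SOCS1 were at 0, so the fitted difference is not a bound: it was 0.76 in IFNγ and 0.73 in IL-1β, and the average was 1.32 with an additive model. JAK2 was not called on average (−0.11 ± 0.10, edgeR adjusted p = 0.39), with differences of −0.54 in NT, −0.03 in IFNγ and 0.24 in IL-1β (edgeR adjusted p = 0.021, 0.93 and 0.32) and an adjusted p of 0.46 for variation among treatments.

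SECTM1, BIRC3, ZC3H12A and the snRNA gene RNU1-2 were both called on average and varied. RNU1-2 (edgeR adjusted p = 0.045 for variation) had only multimapping reads and was named after its values were seen. SECTM1, a secreted and transmembrane protein, had 11.05, 19.3 and 9.21 CPM in sgERH NT, IFNγ and IL-1β, against 21.0, 103 and 18.2 CPM in the same treatments of sgAAVS1, and its difference was −2.41 in IFNγ. BIRC3, an inhibitor of apoptosis induced by NF-κB, had 11.4, 14.6 and 42.3 CPM in sgERH, against 3.20, 3.73 and 38.5 CPM in sgAAVS1. ZC3H12A, the RNase regnase-1, had 28.8, 27.2 and 58.8 CPM with sgERH, against 10.1, 10.9 and 45.9 CPM with sgAAVS1. The differences of BIRC3 were 1.86 in NT, 1.94 in IFNγ and 0.14 in IL-1β, and those of ZC3H12A 1.51, 1.31 and 0.36. NFKBIA, the NF-κB inhibitor, showed the same order, with differences of 1.26, 1.25 and −0.13. The remaining genes of the 8 with the strongest variation among called genes of at most 20% multimapping reads, SESN2, TRAF1, AC083837.1, AC106712.1 and LINC02085, did not pass the adjusted p for variation.

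**Figure D4:**
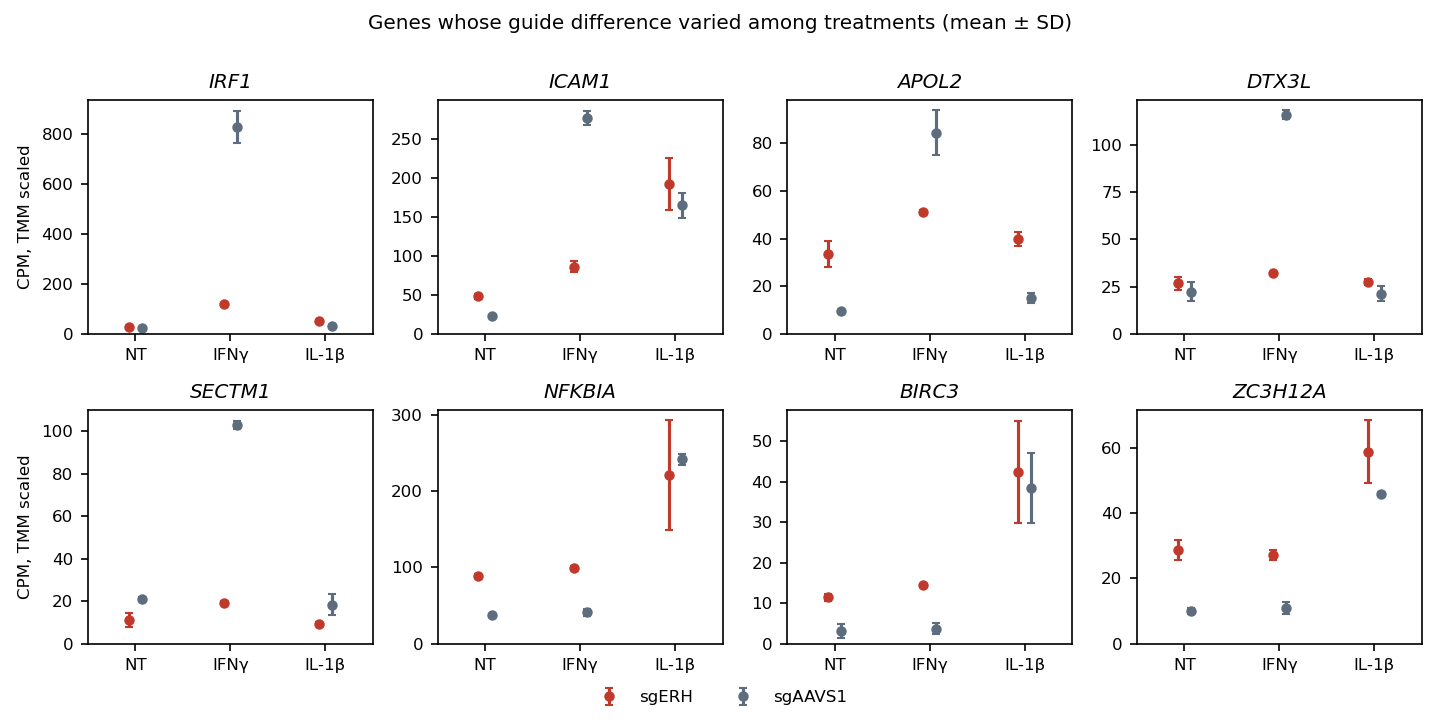
Mean level ± SD (CPM after TMM scaling, y axis from 0) of 8 genes whose guide difference varied among treatments, for sgERH (red, left of each pair) and sgAAVS1 (grey) in NT, IFNγ and IL-1β cells (n = 2 or 3 libraries). IRF1, ICAM1, DTX3L and SECTM1 lie far higher in sgAAVS1 cells with IFNγ, and APOL2 less so (84.4 CPM against 51.2 CPM in sgERH). NFKBIA, BIRC3 and ZC3H12A lie apart between guides in NT and IFNγ and closer in IL-1β.

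The number of varying genes is less certain than the average. It ranged from 14 to 196 when single libraries were left out and was 3 with all 18 libraries. IRF1 and ICAM1 passed in all 23 alternatives in which variation could be tested, whereas BIRC3 passed in 8 and ZC3H12A in 10 of 23. Genes nearest to the fold threshold of the average were ANKRD20A5P, RNU4-46P and ZNF497 just inside (1.00 each) and GRK4, SMPD1 and THAP2 just outside (0.999, 0.999 and 0.998) on the upper side. On the lower side PRKDC and ASMTL lay just inside (−1.001 each), and RACGAP1, NCAPD2 and KCNQ1 just outside (−0.999 each).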

How the data were processed

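QuantSeq 3′ libraries were trimmed by the authors (Trim Galore 0.6.2, FastQC 0.11.8) and aligned and counted with SlamDunk against GRCh38 in 3′ end windows collapsed per gene, per the study's methods. The deposited values used are raw read counts per gene, multimapping reads included and no UMIs given. Rates of T-to-C conversion in the same files were not used. Counts (4987127 to 5986338 per library) were filtered with filterByExpr, leaving 13370 genes, and fitted with edgeR 4.0.16 in R 4.3.3 (quasi-likelihood, robust, TMM) over 6 groups of guide and treatment. The sgERH minus sgAAVS1 difference was averaged over the 3 treatments. A call needed a Benjamini-Hochberg adjusted p of at most 0.05 over all genes and a log2 fold change of 1 or more in size. The fit was tested on simulated data. P-values measure the spread between these libraries, and nothing beyond the label says that they came from separate cultures. Columns of other samples were not present.

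Genes were named by rule: ERH, JAK2, POLDIP3, IRF1, CDKN1A and MKI67, the 15 highest and 15 lowest called genes without overlap, at most 20% multimapping reads and at least 10 CPM in the higher guide mean, up to 4 called members per list and the 8 called genes that varied most among treatments, both with that multimapping limit, and the 3 nearest to the threshold on each side. Every other gene with a value was chosen after its values were seen. The comparison and the gene lists were chosen with earlier results of these data known. RefSeq promoters (GRCh38.p14) matched by symbol. Alternatives were DESeq2 1.42.0 and its size factors, library totals, no filter, no multimapping reads, an additive model, all 18 libraries, a non-robust fit, a replicate block and leaving out single libraries.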

Additional observations from a re-analysis of the deposited data

Results flagged for a closer look

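A gene was picked here when its guide difference varied among treatments by the edgeR quasi-likelihood test of both contrasts and the gene was among those the rule names. IRF1 had an adjusted p of 2.71e-14, with sgERH below sgAAVS1 in IFNγ (−2.81, both sgERH libraries below all 3 sgAAVS1 libraries) and above it in NT (0.30) and IL-1β (0.77). SECTM1 had an adjusted p of 0.0067, with a larger deficit in IFNγ (−2.41) than in NT (−0.92) and IL-1β (−0.98). BIRC3 had an adjusted p of 0.0437, with 1.86 in NT, 1.94 in IFNγ and 0.14 in IL-1β. ZC3H12A had an adjusted p of 0.0456, with 1.51, 1.31 and 0.36 in the same treatments. With all 18 libraries IRF1 still passed and the other 3 did not (adjusted p = 0.802 each).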

How the results depend on the processing

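The number of risen genes, 903, stayed within 1.5 times of that value under each alternative, from 735 with all 18 libraries to 1239 with library totals, a scaling chosen after seeing the data, and from 860 to 1009 when single libraries were left out. The number of fallen genes, 286, was 160 with library totals and otherwise 233 (all 18 libraries) to 349 (no filter on low counts), with 282 to 325 when single libraries were left out. Of the results named, 2 reversed: JAK2 (0.0499) and POLDIP3 (0.0417) with library totals, both uncalled. The number of genes varying among treatments, 35, was 60 with DESeq2, 169 with no filter on low counts and 3 with all 18 libraries, and 14 to 196 when single libraries were left out, with 196 without sgERH IL-1β replicate 3 and 82 without sgERH IL-1β replicate 2. At an unadjusted p under 0.05, 1136 genes varied. The number of genes without overlap, 2361, was 619 with all 18 libraries, and 2437 to 2878 when single libraries were left out. With all 18 libraries the difference in multimapping share was 0.50 percentage points (exact permutation p = 0.558), against 0.82. The cause of these changes was not tested. Same-numbered libraries did not deviate together (correlations of −0.04 to 0.05 over genes), so the numbers do not pair the samples. A fit with the replicate block gave 877 risen, 299 fallen and 35 varying genes, with 846 and 277 shared with the fit without it.

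Over the named genes, 2506 combinations of gene and alternative kept their call, 85 lost it and 69 gained one. Depth limits genes near 1 CPM, such as PLK2 and SNHG22, which had a few reads per library. Counting windows end at annotated 3′ ends, so splicing and isoforms were not measured.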

Other observations

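Replication-dependent and other histone genes, which mostly lack poly(A) tails, were mostly higher: of 22 tested genes with HIST symbols 14 were higher and 3 lower by the adjusted p, 6 rose and 1 fell, with a median of 0.72. Of 379 zinc finger genes with ZNF symbols 27 rose (7.12%, against 6.75% of all genes tested). In the same group 2 fell (0.528%, against 2.14% of all genes tested), and the median was 0.27. Of 464 processed pseudogenes 15 rose (3.23%) and 8 fell (1.72%), with a median of −0.28. Gene symbols that resemble mitochondrial sequence (MT copies) rose in 10 of 23, mostly from multimapping reads, and such reads took 8.39 to 9.72% of each sgERH library and 6.81 to 7.58% of each sgAAVS1 library. In the 3 libraries that the study left out, ERH had 126 CPM of total counts in sgERH IFNγ replicate 2, against 52.7 CPM in sgAAVS1 NT replicate 1 and 676 CPM in sgAAVS1 IL-1β replicate 3. The value of 52.7 CPM in a library labelled sgAAVS1 is below those of all 8 sgERH libraries used.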
